A study of Mus musculus with 3 samples.

Results

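Far peaks were the 17424 listed peaks of 5-hydroxymethylcytosine (5hmC) whose midpoint lay more than 50 kb from the span of every protein-coding gene on the autosomes of the mouse genome. They made up 8.41% of the 207188 autosomal peaks (95% Wilson interval 8.29% to 8.53%), out of 208468 distinct peaks in the whole list. Far peaks were sparse, at 20.8 per Mb of far sequence against 121 per Mb of nearer sequence. They were gathered: 61.0% of them lay in 791 clusters that together covered 2.86% of the far sequence. This is not particular to far peaks, since 83.9% of nearer peaks lay in clusters by the same rule. The stretches between coding genes with the most far peaks were Cd83 to Jarid2, Irf2bp2 to Tomm20, Gadd45g to Diras2, Id2 to Rnf144a and Haao to Zfp36l2. A non-coding gene lay over 28.9% of far peaks. Gene positions came from RefSeq for GRCm38.p6, the assembly that mm10 also names, with 1 span per gene.

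The series holds 2 samples of NIDF-AML, a mouse acute myeloid leukaemia induced by FLT3-ITD, NPMc, IDH2/R140Q and DNMT3A/R882H together, and 1 sample of normal bone marrow cells. The labels give bone marrow cells as the tissue of all 3 samples, and they name no vector, promoter, animal number or input library. Peak lists were analysed for the 2 leukaemia samples only. All 223267 lines of the 2 lists were identical, so they were counted as 1 list, with no replicate spread and no comparison of leukaemia with normal marrow. Both list headers name index 4 as the treatment, against index 5 or index 6 as the control, and no source used here tells which sample carries index 4. Since the treatment index is shared and the control index differs, index 4 may be normal marrow, and every value below therefore describes the index 4 library. If another 5hmC library was the control, a sequence without a listed peak may still carry 5hmC. Read depth is unknown and the lists hold no score. All intervals are at 95%, take each peak as independent of the others, and reflect counting error alone.

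5hmC is made from 5-methylcytosine by the TET dioxygenases, and in mammals it is mostly found at CG dinucleotides. In many cell types it is found along the bodies of expressed genes and at enhancers, the distal elements from which transcription factors act on a promoter over long distances. The blood regulators Myc and Id2, for example, are known to have enhancers far from their coding sequence. Long non-coding RNAs (lncRNAs) and microRNAs are also transcribed from sequence without protein-coding genes.

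As examples chosen for their CG, 1 window around a lncRNA start is printed for some of the 12 largest clusters. These clusters had a far peak over such a window with at least 1 CG in the part of the listed interval inside the window. Where a cluster had more than 1 such window, that with the most CG under the peak was taken, then the most bases. There were 5 of these clusters. In the clusters at Spdye4c, Trib1 and Prex1, the windows of Gm29010, Gm19510 and 5031425F14Rik are not printed. They had 0 CG in the part of their far peak inside the window. Each window is the RefSeq sequence from 250 bases before to 50 bases after the start, read 5′ to 3′ on the strand of the lncRNA. Capitals mark the bases under the far peak. Listed positions are rounded to multiples of up to 16 bases, so the ends of the capitals are approximate. The windows are A630001O12Rik at chr8:126848770-126849069 on the plus strand, 81.7 kb from Tomm20, and, on the minus strand, Gm35551 at chr17:84044537-84044836, 139 kb from Zfp36l2. The other 3 are also on the minus strand: Gm31814 at chr16:24255576-24255875, 137 kb from Lpp, Gm32800 at chr2:167847793-167848092, 82.7 kb from Ptpn1, and Gm36441 at chr12:25209552-25209851, 114 kb from Id2.
A630001O12Rik: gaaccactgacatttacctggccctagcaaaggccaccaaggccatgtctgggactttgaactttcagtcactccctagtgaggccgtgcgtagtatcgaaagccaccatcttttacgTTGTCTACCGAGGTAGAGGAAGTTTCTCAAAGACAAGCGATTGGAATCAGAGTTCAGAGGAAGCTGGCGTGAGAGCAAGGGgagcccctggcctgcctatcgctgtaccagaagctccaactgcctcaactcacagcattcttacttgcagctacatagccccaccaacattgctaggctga
Gm35551: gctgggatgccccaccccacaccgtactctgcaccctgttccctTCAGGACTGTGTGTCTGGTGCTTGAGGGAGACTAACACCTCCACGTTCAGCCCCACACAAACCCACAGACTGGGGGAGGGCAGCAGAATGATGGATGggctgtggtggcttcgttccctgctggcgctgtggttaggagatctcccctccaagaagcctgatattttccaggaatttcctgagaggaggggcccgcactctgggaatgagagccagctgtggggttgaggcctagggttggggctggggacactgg
Gm31814: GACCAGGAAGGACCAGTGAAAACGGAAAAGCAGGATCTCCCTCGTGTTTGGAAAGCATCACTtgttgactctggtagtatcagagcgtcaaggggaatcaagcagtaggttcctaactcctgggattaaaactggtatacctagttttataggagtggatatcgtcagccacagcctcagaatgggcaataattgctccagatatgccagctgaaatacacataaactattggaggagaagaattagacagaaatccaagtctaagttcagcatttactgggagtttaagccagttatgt
Gm32800: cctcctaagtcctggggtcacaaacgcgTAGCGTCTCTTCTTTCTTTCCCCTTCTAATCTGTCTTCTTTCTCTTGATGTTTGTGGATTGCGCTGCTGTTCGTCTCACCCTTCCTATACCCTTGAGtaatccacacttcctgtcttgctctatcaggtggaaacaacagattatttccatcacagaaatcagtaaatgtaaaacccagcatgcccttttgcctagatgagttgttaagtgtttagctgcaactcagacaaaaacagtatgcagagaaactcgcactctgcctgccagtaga
Gm36441: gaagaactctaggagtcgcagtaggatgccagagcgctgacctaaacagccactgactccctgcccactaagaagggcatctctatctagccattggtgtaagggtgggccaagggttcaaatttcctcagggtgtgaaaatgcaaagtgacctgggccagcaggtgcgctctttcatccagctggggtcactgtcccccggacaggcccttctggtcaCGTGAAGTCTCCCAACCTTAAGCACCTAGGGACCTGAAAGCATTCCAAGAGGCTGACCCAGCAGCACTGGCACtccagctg

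The capitals hold 3 CG in A630001O12Rik and 3 in Gm32800, 2 in Gm31814, and 1 each in Gm35551 and Gm36441. Since these windows were chosen for CG under the peak, their counts describe the printed windows only. The whole printed windows hold 8, 6, 4, 5 and 5 CG in that order of genes. Across the far sequence, 122 of 2717 lncRNA genes with such a window (4.49%) had a far peak over it. These 122 windows held a median of 5.5 CG in 300 bases, against 3 in the 2595 lncRNA windows without a far peak and 14 in the 16457 windows of protein-coding genes. CG occurred 2.56 times per 100 bases under the far peaks, 1.86 times in the rest of the same windows, and 1.25 times in the lncRNA windows without a far peak. In 101 of the 122 windows (82.8%), at least 1 CG stood in the part of the far peak inside the window. A peak over the windows of more than 1 gene was counted for each. The far peaks at lncRNA starts thus lay in windows with more CG than other lncRNA starts and fewer than coding starts, as a description of this list.

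MicroRNAs gave the other sequences that could be set against far peaks. Of 135 hairpins in far sequence, 31 (23.0%) had a far peak within 5 kb, measured here and below to the midpoint of the peak. The share of far sequence that close to a far peak was not computed, so 23.0% has no background beside it. Among these hairpins, 10 beside Rtl1 shared 1 far peak, and the Mir181 pair and the Mir29 pair each shared their nearest. A further hairpin, Mir146, lay just inside the limit with a far peak 4561 bases away. A single hairpin, Mir181b-1, lay under a far peak. Mir181a-1 and Mir181b-1 lie side by side near Ptprc, the gene of the leukocyte antigen CD45. Their peak spanned chr1:137966656-137966688, with its midpoint 131 bases past the Mir181a-1 hairpin and 96.2 kb from Ptprc. In the Mir181b-1 hairpin (chr1:137966639-137966718, plus strand, GRCm38.p6), capitals mark the bases under the peak.
Mir181b-1: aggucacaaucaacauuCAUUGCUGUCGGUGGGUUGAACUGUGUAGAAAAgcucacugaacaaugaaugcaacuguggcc

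Mature miRNAs with known roles in blood are printed with the seed, bases 2 to 8, in capitals. miR-181 acts in lymphocyte development, miR-29 targets DNA methyltransferases and TET enzymes, miR-101 targets Ezh2, and miR-146a restrains NF-kB signalling.
miR-181a-5p: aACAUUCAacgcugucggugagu
miR-181b-5p: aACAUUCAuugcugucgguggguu
miR-29a-3p: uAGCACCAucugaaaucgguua
miR-29b-3p: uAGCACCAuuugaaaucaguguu
miR-101a-3p: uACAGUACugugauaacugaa
miR-146a-5p: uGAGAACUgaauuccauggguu

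The pair miR-181a-5p and miR-181b-5p share the seed ACAUUCA, and miR-29a-3p and miR-29b-3p share AGCACCA. Mir29b-1 and Mir29a lay 81 and 427 bases from the nearest far peak, 104 kb from Klf14, with 4 far peaks within 5 kb of each. Mir101a lay 541 bases from the nearest of 4 far peaks, 68.9 kb from Ak4.

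Outside protein-coding genes, the density of peaks went down with distance from them. Peaks per Mb numbered 136 inside genes, 142 from 0 to 5 kb, 98.3 from 5 to 10 kb, 84.2 from 10 to 25 kb and 68.4 from 25 to 50 kb. Far peaks numbered 46.5 per Mb from 50 to 100 kb, 28.9 from 100 to 200 kb, 10.3 from 200 to 500 kb, 2.997 from 500 to 1000 kb and 2.53 beyond 1000 kb. The intervals of the last 2 classes overlapped. All these intervals take peaks as independent although peaks gathered, so they are too narrow to judge the other steps. The limit of 50 kb itself marked no step: 1389 peaks lay 50 to 55 kb out, at 58.0 per Mb, and 1566 peaks lay 45 to 50 kb out, at 60.1 per Mb. The median far peak was 102 kb from its nearest gene, with quartiles of 68.9 and 169 kb and a maximum of 2158 kb.

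**Figure D1:**
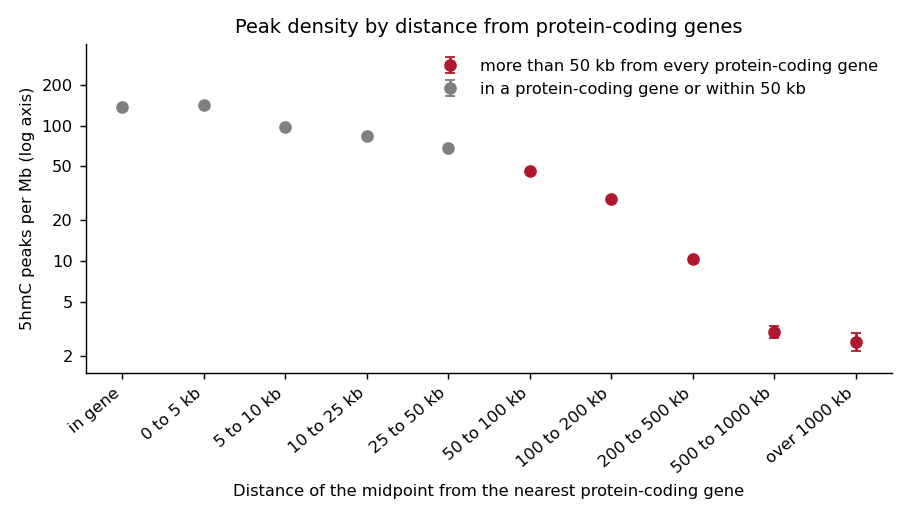
Peaks per Mb of autosomal sequence (y axis, log scale) by distance from the nearest protein-coding gene (x axis), with exact Poisson 95% intervals. Far classes (red) go down to 2.53 per Mb beyond 1000 kb, against 142 per Mb at 0 to 5 kb among the nearer classes (grey).

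Far sequence took up 839 Mb, or 34.9% of the autosomal sequence, while far peaks were 8.41% of the peaks. The ratio of far to nearer density was 0.171 (exact 95% interval of a ratio of rates 0.169 to 0.174), and far density was the lower in each of the 19 autosomes. Chromosome 13 had the highest ratio, 0.331, with 35.3 far peaks per Mb. Chromosome 11 had the lowest, 0.0980, with 17.2 far peaks per Mb against 176 nearer peaks per Mb. Widths were alike, with a median of 65 bp in far peaks and in nearer ones. Repeated lines were fewer at far peaks, 0.964% of intervals, than at peaks outside genes within 50 kb (3.20%) or inside genes (8.51%). Among the 168 repeated far intervals, 91.1% had at least 2 annotated genes of any kind within 5 kb, against 7.16% of the 17256 far intervals listed once.

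The far sequence fell into 2498 stretches between coding genes, and these differed widely. No peak was listed in 898 stretches (35.9%), while 135 stretches, 72.0 Mb in all, held 50% of the far peaks. Of the 1385 stretches of at least 100 kb, 318 (23.0%) had no peak, the median was 5.14 peaks per Mb and the highest 10% exceeded 97.9. Stretches shorter than 100 kb had 74.8 per Mb, those of 250 to 500 kb had 32.3, and those above 2000 kb had 3.81. Stretches also followed their surroundings: across 1376 stretches of at least 100 kb, Spearman's rho of far density was 0.66 with the density in the adjoining 50 kb on both sides, 0.55 with that in the flanking gene bodies and -0.17 with length. All these points come from 1 list and share its depth. The 1376 stretches were then ordered by the density of the adjoining sequence and divided into 4 groups of 344. Far density was 2.70, 3.68, 12.01 and 75.1 per Mb from the lowest to the highest group. Stretches with an adjoining density of 0 were split between the lowest 2 groups by their order alone, so the step from 2.70 to 3.68 is partly arbitrary.

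The fullest stretches lay beside genes with known roles in blood cells and beside some without. The stretch from Cd83, a surface protein of activated immune cells, to Jarid2, a partner of Polycomb repressive complex 2, held the most, 222 peaks in 828 kb. Next came Irf2bp2 to Tomm20 with 191 peaks in 237 kb, Gadd45g to Diras2 with 161 in 556 kb, Id2 to Rnf144a with 159 in 1111 kb, and Haao to Zfp36l2 with 158 in 235 kb. Also among the 12 fullest stretches were Uaca to Tle3 (155 peaks), Runx1 to Setd4 (146), Bcl2l11 to Spdye4c (143), Map3k1 to Ankrd55 (141), Ly86 to Rreb1 (125) and Thap1 to Zfp703 (120). The 12 stretches together held 1844 far peaks, 10.6% of all. By density, Irf2bp2 to Tomm20 led with 807 per Mb, before Cebpb to Ptpn1 (684), Haao to Zfp36l2 (673), Gm30733 to Prex1 (512) and Cd24a to Qrsl1 (489.7).

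The longest stretches were nearly empty. Pcdh20 to Pcdh9, between 2 protocadherin genes of neural adhesion, held 3 peaks in 4442 kb, and Celf4 to Pik3c3 held 6 in 4411 kb. Olfm4 to Pcdh17 and Cntnap5b to Cdh20 held 8 each, and Tenm3 to Aga held 6. The longest stretch with no listed peak was 4931417E11Rik to Ctnna2, 3312 kb. The exact Poisson interval of a count of 0 reaches 3.69 peaks.

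Far peaks stood close to one another. The median distance from a far peak to the nearest other peak was 1.58 kb, against a mean spacing of 48.1 kb in far sequence. Peaks outside genes within 50 kb had a median of 1.19 kb and peaks inside genes 1.00 kb, against a mean spacing of 8.24 kb in nearer sequence. In windows of 100 kb, the median was 0 far peaks in 7276 far windows and 6 peaks in 14513 nearer windows. Empty windows made up 69.0% of the far windows and 25.5% of the nearer ones. Windows were laid only where a whole one fitted. The 1113 far stretches shorter than 100 kb, the densest class at 74.8 per Mb, therefore gave no window. The variance over the mean was 18.9 in far windows and 20.5 in nearer ones, where independent peaks at 1 rate would give 1. Only 154 far windows (2.12%) held 20 peaks or more, with up to 81, and these held 42.3% of the peaks in far windows.

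**Figure D2:**
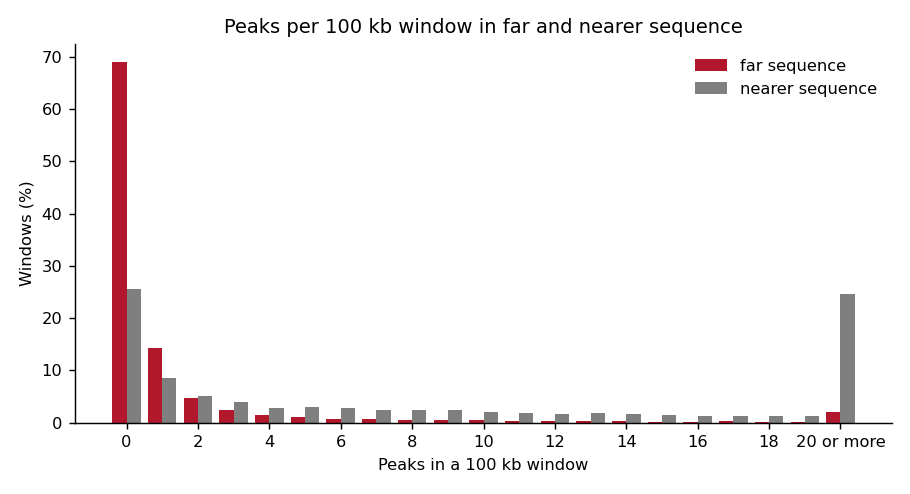
Share of 100 kb windows (y axis, %) with each number of peaks (x axis) in far sequence (red, 7276 windows) and nearer sequence (grey, 14513 windows). Far windows were empty in 69.0% of cases, against 25.5% of nearer windows, and 2.12% of far windows held 20 peaks or more. Far stretches shorter than 100 kb gave no window.

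Clusters were runs of at least 5 far peaks with gaps of at most 10 kb between midpoints. The 791 clusters held 10635 far peaks, 61.0% (Wilson interval 60.3% to 61.8%), in 24.0 Mb. Their median length was 21.2 kb and their median size 8 peaks, with 27 clusters of at least 50 peaks and 4 of at least 100. A further 3058 far peaks (17.6%) had no other far peak within 10 kb. Continuation into nearer sequence was found in 246 clusters, whose runs went on through peaks less than 50 kb from a gene. A non-coding gene lay over at least 1 peak in 451 clusters (57.0%). By the same rule, clusters held 83.9% of nearer peaks, and 65.8% of the nearer peaks outside genes when these were taken alone. The mean spacing was 8.24 kb in nearer sequence, below the gap allowed, and 48.1 kb in far sequence. A fixed gap therefore does not treat far and nearer peaks alike.

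The largest cluster filled the sequence between Irf2bp2, a corepressor that binds IRF2, and Tomm20, a receptor of mitochondrial protein import. It held 191 peaks in 235 kb at a median gap of 0.952 kb. The second, with 158 peaks in 231 kb, lay between Haao, an enzyme of kynurenine metabolism, and Zfp36l2, an RNA-binding protein that destabilises AU-rich transcripts. Both ran through almost all of their stretch and on into nearer peaks, reaching 251 and 305 peaks in all. Beside Gadd45g, a stress-induced growth regulator, 120 peaks spread over 237 kb and began 51.5 kb from the gene. The fourth cluster, 102 peaks in 166 kb, lay between Bcl2l11, which encodes the death-inducing protein BIM, and Spdye4c, with 91 of its peaks over non-coding genes.

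Bcl6, a repressor of germinal centre B cells, and Lpp flanked 96 peaks in 206 kb, and Cebpb, a myeloid transcription factor, and Ptpn1, a tyrosine phosphatase, flanked 96 in 139 kb. The cluster at Cebpb was continuous with nearer peaks on its sides, 335 peaks in all, whereas those at Bcl6 and Bcl2l11 consisted of far peaks alone. Klf14 and Mkln1 flanked 95 peaks, and Trib1, a pseudokinase that directs C/EBP alpha to degradation, lay 50.6 kb from a cluster of 92. Cd24a, a glycoprotein of blood progenitors, and Id2, an inhibitor of basic helix-loop-helix factors, had clusters of 82 peaks each. Rreb1, a Ras-responsive zinc finger protein, and Prex1, a Rac activator of neutrophils, had clusters of 79 and 77. Peaks per kb in these 12 clusters lay between 0.466 and 0.814, against 0.136 per kb inside protein-coding genes as a whole; the clusters were chosen for their many peaks, so this is a description.

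**Figure D3:**
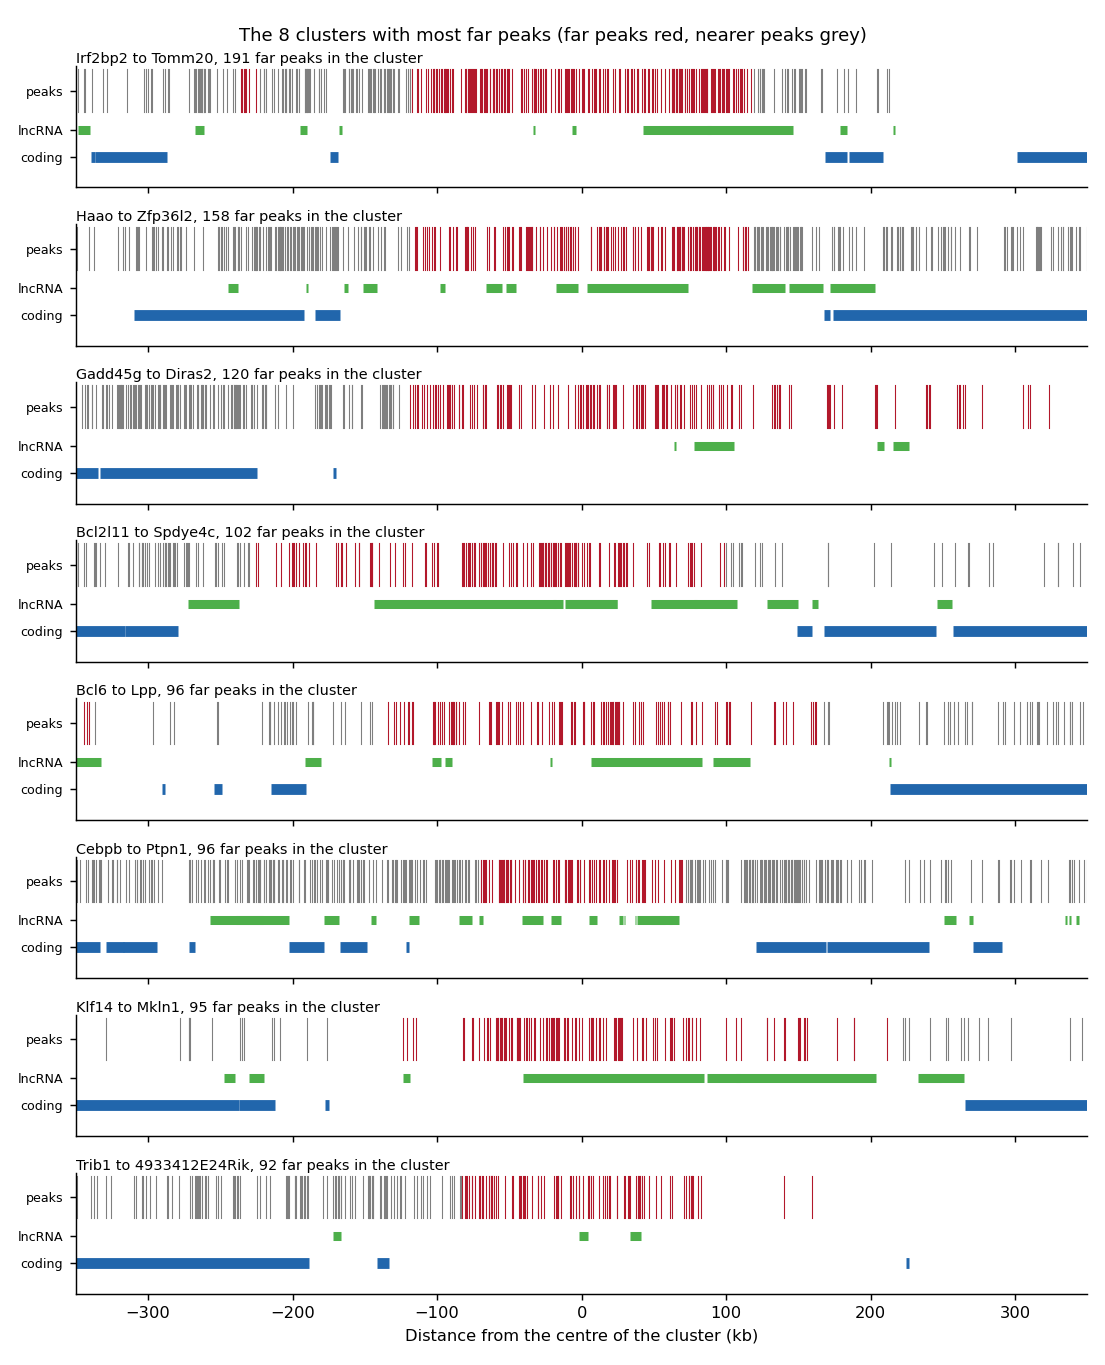
The 8 clusters with most far peaks, by distance from the centre of the cluster (x axis, kb). Ticks are peak midpoints, far in red and nearer in grey, green bars are lncRNA genes and blue bars protein-coding genes. The Irf2bp2 to Tomm20 cluster of 191 peaks and the Haao to Zfp36l2 cluster of 158 peaks go over into nearer peaks, whereas the Bcl2l11 to Spdye4c cluster of 102 stands apart from both genes.

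Each far peak was next given to its nearest protein-coding gene, which is a statement of position and not of action on that gene. Far sequence was nearest to 4086 genes, of which 2251 (55.1%) had at least 1 far peak. The median was 1 far peak, while 205 genes with at least 20 held 49.5% of all far peaks. The 25 genes with the most held 13.2%. Of these 25, 5 had no peak in their own body, namely Gadd45g, Irf2bp2, Zfp36l2, Spdye4c and Cxcr4. Runx1 had 88 far peaks and 184 peaks in its body, whereas the others among the 25 each had more far peaks than body peaks. The 25 were chosen for many far peaks, and these counts are not scaled to length. Gadd45g has a body of 1.80 kb beside 278 kb of far sequence, and Runx1 has 225 kb beside 329 kb.

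Among the 25 were several regulators of transcription and chromatin. Jarid2 was nearest to 158 far peaks, at a median distance of 230.3 kb, and Id2 to 149 at 164 kb. The Groucho corepressor Tle3 had 96, the zinc finger genes Zfp703 and Zfp608 had 95 and 73, and Cited2, a cofactor of CBP and p300 needed by blood stem cells, had 90. Tbl1xr1, a subunit of the NCoR and SMRT corepressors, had 78. Rybp, a subunit of Polycomb repressive complex 1, and Lmo4, a LIM-only cofactor, had 77 each. Klf14 had 83 and Hlx, a homeobox gene expressed in blood progenitors, had 72.

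Others encode signalling proteins and receptors. Gadd45g had 129 far peaks and 0 in its body. Cxcr4, the receptor that holds blood cells in the marrow, had 84 far peaks and none in its 4.10 kb body. Map3k1, a kinase above JNK, had 80, Trib1 had 77, and the adhesion receptor Adgrl2 had 77 spread over as far as 1142 kb. Eea1, an endosome tether, had 91, Uaca 87 and Kcnrg, a potassium channel regulator, 74. Irf2bp2, Tomm20, Zfp36l2 and Spdye4c, with 97, 96, 89 and 86, lay at the clusters described above.

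**Figure D4:**
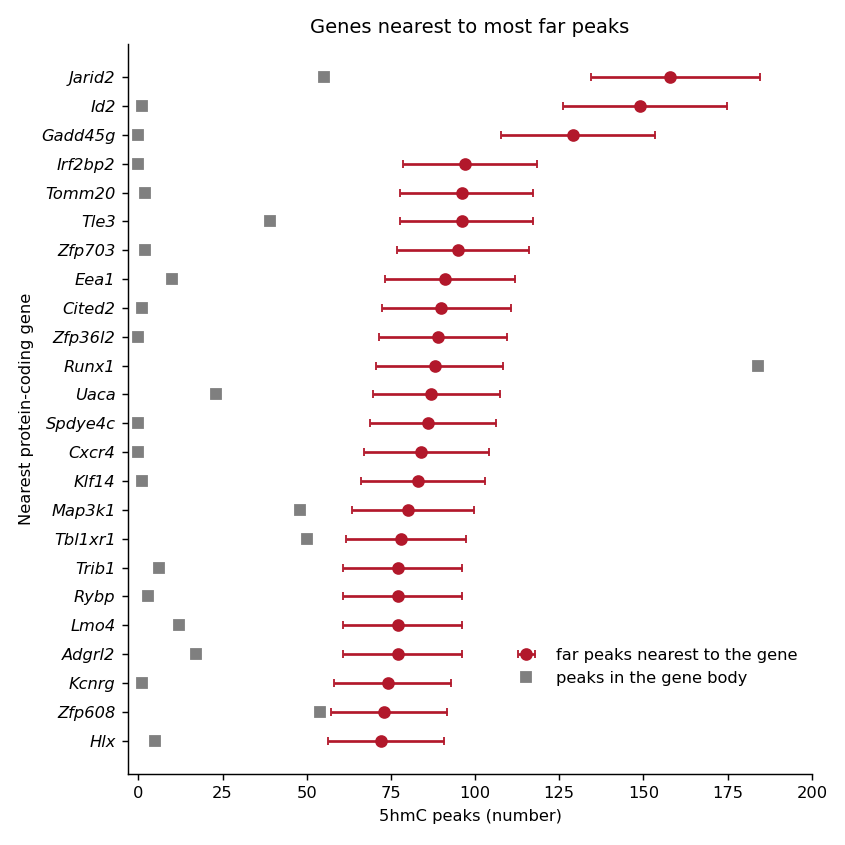
Number of far peaks nearest to 24 of the 25 leading genes (red, with exact Poisson 95% intervals) and number of peaks in the body of the same gene (grey squares), on the x axis. Jarid2 leads with 158 far peaks against 55 in its body, and Runx1 is the gene with more body peaks, 184, than far peaks, 88. Counts are not scaled to the length of the body or of the far sequence.

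Far peaks were denser beside the listed blood regulators than beside other genes, and less dense beside 3 lists taken by the opening letters of gene symbols. The blood lists were named gene by gene, with earlier results of these data known. The ratios below therefore describe these lists and are no test of blood genes as a class. Each stretch was divided at its middle between its 2 genes, so that density could be given per Mb of far sequence nearest to a list. Density went down with stretch length, and the lists were not matched for it. Blood transcription factors had 1023 far peaks, 73.0 per Mb, which was 3.67 times the density at all other genes (3.44 to 3.91). Far peaks were listed at 33 of the 36 factors with far sequence (91.7%), with a median of 14.5, against 2251 of 4086 genes and a median of 1 over all genes. The median density was 61.5 per Mb at these factors, against 2.72 over all genes. After Id2 and Runx1 came Foxo1 and Myc with 71 each, Bcl6 with 64, Klf4 and Cebpb with 58 each, Bcl11a with 56, Zeb2 with 50 and Sox4 with 47. Low or empty members were Gata3 with 2 peaks in 1180.4 kb, Mecom with 1 in 80.1 kb, and Bcl11b with none in 350.3 kb. Nfil3 and Pax5 also had none, but had only 13.2 and 30.04 kb of far sequence.

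Factors differed in where their peaks lay. Cebpb, Sox4 and Maf had 58, 47 and 24 far peaks and none in their bodies, which span 1.52, 4.78 and 3.64 kb. Etv6 and Erg had 2 and 5 far peaks but 178 and 89 in their bodies, with only 13.1 and 7.90 kb of far sequence beside them. Meis1, a Hox cofactor of leukaemia named in the series title, had 8 far peaks in 816 kb of far sequence (9.81 per Mb) and 6 in its body.

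Blood receptors and signalling genes had 615 far peaks, 155 per Mb, 7.71 times the density at other genes (7.10 to 8.35), with peaks at 22 of 25 genes and a median of 13. Their median density was 150 per Mb. Cxcr4 had 84, Btg1, an antiproliferative gene, 68, Bcl2l11 57, the stem cell factor receptor Kit 56 and the ERK phosphatase Dusp6 51. The cyclins Ccnd2 and Ccnd1 had 28 and 21, and Ptprc had 26. Il15 had none in 179 kb, and Bcl2 and Cd34 had none in only 21.97 and 10.98 kb of far sequence. Of the myeloid effector genes, the granule and phagocyte genes, only Anxa1 had far sequence beside it, with 1 far peak.

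For the lists taken by the opening letters of gene symbols, density per Mb was lower, but not in each case the share of genes with a far peak. The names of these lists follow the symbols, and the tissues that use each member were not checked. Developmental transcription factors had 254 far peaks at 11.6 per Mb, 0.554 times the density at other genes (0.487 to 0.627), while 50 of 89 (56.2%) had any, against 55.1% of all genes with far sequence, with the same median of 1. Their median density was 2.59 per Mb, against 2.72 over all genes. Sall3 with 43, Tbx3 with 23 and Dlx2 with 15 led this list. Neuronal adhesion, channel and receptor genes had 315 at 4.21 per Mb, or 0.188 times (0.168 to 0.210), although 68 of 105 genes (64.8%) had any and the median was again 1. Their median density was 1.63 per Mb, nearer to the 2.72 over all genes than the ratio is to 1. This list had 74.8 Mb of far sequence, against 14.0 Mb for blood transcription factors and 3.96 Mb for blood receptors. Of the 315 peaks, 74 belonged to Kcnrg, 36 to Cdh26 and 18 to Grm4. Olfactory, vomeronasal and taste receptors had 38 at 8.22 per Mb, or 0.395 times (0.279 to 0.542), with a far peak at 11 of 104 genes (10.6%) and a median of 0. Beyond 100 kb the ratio of this list was 0.832 (0.515 to 1.27), so that its interval took in 1. Their leading members were Tas2r134 with 9, Vmn1r2 with 7 and Olfr161 with 6.

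Non-coding genes lay over 5034 far peaks, 28.9% (28.2% to 29.6%), while they covered 13.0% of the far sequence. Density was 46.2 far peaks per Mb under non-coding genes and 17.0 per Mb elsewhere, a ratio of 2.72 (2.63 to 2.81). Density went down with distance from coding genes and with stretch length, and neither was matched here. Among peaks outside coding genes within 50 kb, 19.2% lay over a non-coding gene against 14.9% of the sequence, a ratio of 1.36 (1.33 to 1.39). Both intervals take peaks as independent although peaks gathered, so they are too narrow to compare the 2 ratios. LncRNAs accounted for most, with 4710 far peaks (27.0%) over 1216 genes. Pseudogenes lay over 298 far peaks (1.71%) at a density 1.39 times that elsewhere (1.24 to 1.56), and small RNAs over 3.

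Lncpint, a p53-induced lncRNA beside Klf14 and Mkln1, lay over 68 far peaks in 125 kb. Morrbid, which in mouse represses Bcl2l11 in short-lived myeloid cells, lay over 67 in 131 kb. Gm31718 in the Irf2bp2 to Tomm20 stretch also lay over 67. Next were 2610307P16Rik on the side of Sox4 with 59, Gm36287 beside Id2 with 57 and Pvt1, the neighbour of Myc, with 57 in 222 kb. The other 9 of the leading 15 held 32 to 42 each, namely Gm35551, Gm31814, Gm13986, Gm32543, Banf2os, A930011G23Rik, Gm30382, Gm51680 and 2610035D17Rik. Peaks per kb of these 15 spans lay between 0.0811 in A930011G23Rik and 0.723 in Gm51680.

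Among classes of distance from a lncRNA start, far peaks were densest next to the start. These classes were not matched for distance from coding genes or for stretch length. Over 3276 starts of 2719 lncRNA genes in far sequence of 18 autosomes, density was 114 per Mb in the 0.5 kb upstream and 140 per Mb (122 to 160) in the 0.5 kb downstream. It went down on both sides to 53.7 per Mb at 10 to 20 kb upstream and 53.4 per Mb at 10 to 20 kb downstream, against 15.2 per Mb farther than 20 kb from every such start. The 10 kb downstream and the 10 kb upstream held 72.2 and 73.6 per Mb, a ratio of 0.981 (0.920 to 1.05), so the density was about symmetric around the start.

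**Figure D5:**
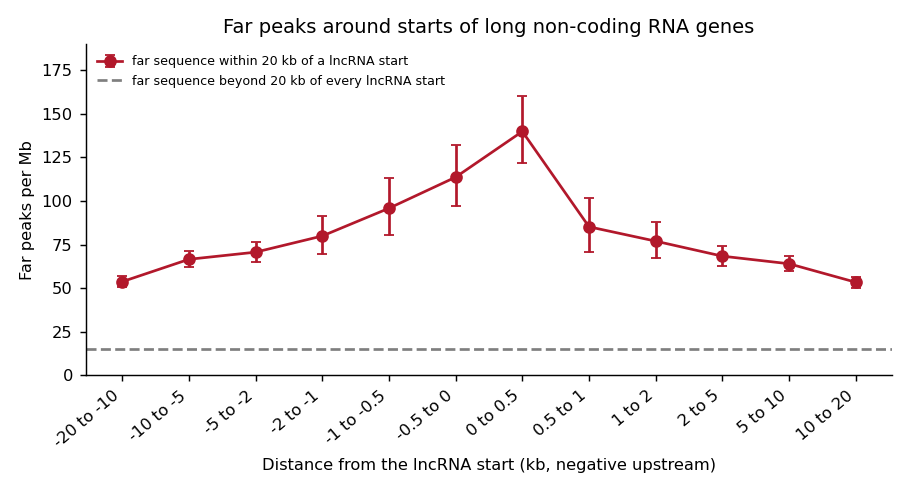
Far peaks per Mb of far sequence (y axis) by signed distance from the nearest lncRNA start (x axis, kb, negative upstream), with exact Poisson 95% intervals. The density is 140 per Mb in the first 0.5 kb downstream, and the dashed line marks 15.2 per Mb beyond 20 kb.

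Antigen receptor loci are annotated as gene segments rather than protein-coding genes, and 182 far peaks (1.04%) lay over them, at 1.13 times the density elsewhere in far sequence (0.968 to 1.30). Igh, the immunoglobulin heavy chain locus, held 99 and the kappa light chain locus Igk held 28 in 3171 kb. Among T cell receptor loci, Tcra held 44, Tcrb 8 and Tcrd, which lies inside Tcra, 7. The lambda light chain locus Igl held 3.

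The remaining hairpins near far peaks were mostly alone. On chromosome 12, 10 hairpins of the imprinted cluster beside Rtl1 (Mir1197, Mir323, Mir758, Mir329, Mir494, Mir679, Mir1193, Mir543, Mir495 and Mir667) shared 1 far peak, 98 bases from Mir543. Mir5099 lay 186 bases, Mir5118 387, Mir8099-2 464, Mir7214 481 and Gm51276 576 bases from their nearest far peak. Mir3089, with 4 far peaks within 5 kb, and Mir6368, beside Sox4, lay 757 and 759 bases away. Gm51282, Mir7216, Mir802, Gm51286, Mir6351, Mir6408, Mir6380, Mir6388 and Mir467h lay 1404 to 4741 bases away.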

How the data were processed

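Genomic DNA of mouse bone marrow cells was enriched for 5hmC by glucosylation, biotin coupling and avidin capture, per the labels' protocols. The authors called peaks with PICS, a model of forward and reverse reads, per the file headers. The build was mm10, per the submitters' processing notes, and no source used here names an aligner. The deposited lists give chromosome, start and end, with no count, score or depth, so there was no test of conditions. All 34848 starts and ends of far peaks equalled their single-precision value, so most are rounded. Repeated lines were counted once.

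Genes came from a RefSeq table of GRCm38.p6, and 105 coding models starting below 3 Mb, on scaffolds, were left out. Distance was taken from midpoints to gene spans. The report names the 12 stretches and the 12 clusters with most far peaks, the 5 longest and 5 densest stretches (at least 100 kb and 10 peaks), the longest empty stretch, the 25 leading nearest genes and 3 from each list, 15 non-coding genes and every miRNA within 5 kb of a far peak. Some items that fall under this rule are not reported here. Further genes of the 2 blood lists, and the very distant stretches and dense lncRNAs at the end, were chosen after their values were seen. Members and lists were chosen with earlier results of these data known. The blood and myeloid lists were named gene by gene. The developmental, neuronal and olfactory lists were taken by the opening letters of gene symbols. Lists were described by counts, with no enrichment test. Intervals are 95% Wilson, exact Poisson, or exact intervals of a ratio of rates. Sequences for lncRNA starts and miRNAs were taken from RefSeq tables, in which starts on chromosome 18 were not used. Alternatives covered the distance limit, cluster gap and size, repeated lines, flanking genes and non-coding margins. Counting steps were tested on simulated data. Python 3.11.15, numpy 2.4.6, pandas 2.3.3, scipy 1.17.1 and matplotlib 3.10.9 were used.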

Additional observations from a re-analysis of the deposited data

How the results depend on the processing

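Of 56 values recomputed under a changed setting, 29 stayed within the interval of the reported value (or, for the number of clusters, within 1.5 times), 27 moved and none changed direction. With limits of 25, 100 and 200 kb, the share of far peaks was 13.8%, 4.32% and 1.56%, density was 28.6, 13.6 and 7.03 per Mb, and the ratio to nearer density was 0.224, 0.120 and 0.0670. Measured from every annotated gene, these were 1.27%, 7.31 per Mb and 0.0730, and with repeated lines kept the share was 7.95% and the ratio 0.161. Clustered peaks made up 45.1% with gaps up to 5 kb, 74.8% up to 25 kb and 43.8% with at least 10 peaks in a cluster, which left 327 clusters. The blood factor ratio was 4.25 beyond 100 kb and 2.94 when both flanking genes were counted. Peaks over or within 5 kb of a non-coding gene made up 41.6%, and 27.3% without pseudogenes. For lists that are not blood factors, the ratio for blood receptors lay between 6.61 and 11.3 and that for olfactory, vomeronasal and taste receptors reached 0.832 beyond 100 kb (0.515 to 1.27). Leaving out either list changed nothing, since the lists are identical: the share was 8.41%, density 20.8 per Mb, the ratio 0.171, clusters 791, clustered peaks 61.0%, the blood factor ratio 3.67 and peaks over non-coding genes 28.9%. Counting antigen receptor loci as genes, an alternative chosen after seeing the data, gave 17240 far peaks (8.32%). No paired analysis was possible because normal marrow had no list here and the 2 leukaemia lists are identical. A stricter score cutoff could not be applied, since the lists hold no score. With depth unknown, sequence without a listed peak cannot be called free of 5hmC.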

Other observations

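Few peaks were listed on the sex chromosomes at any distance from genes, 1104 on X and 176 on Y. The X chromosome had 254 far peaks in 75.5 Mb, 3.37 per Mb (2.97 to 3.81), which was 0.162 times the density of autosomal far sequence (0.143 to 0.183). The Y chromosome had 115 far peaks, 1.73 per Mb (1.43 to 2.07).

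More than 500 kb from every protein-coding gene lay 573 far peaks in 144 stretches. The stretch over Igh, from Adam6a to Zfp386, held 50 of them, Sall3 to Galr1 held 27, and the stretch over Tcra, from Gm36448 to Dad1, held 24. Nmbr to Cited2 held 22, and Zeb2 to Acvr2a held 16. Among lncRNAs with at least 10 far peaks, the 5 densest were short: 4933433H22Rik beside Zfp36l2 held 14 in 11.2 kb, Gm32287 beside Cebpb held 10 in 8.82 kb, Gm32438 beside Ado held 12 in 11.3 kb, 5830428M24Rik between Gm46353 and Arf6 held 11 in 10.8 kb, and Gm30316 beside Cryaa and Sik1 held 20 in 19.9 kb.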
